A study of Mus musculus with 12 samples.

Results

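The TNF receptor superfamily was followed through 9 receptors whose probes carry Tnfrsf symbols: Tnfrsf1b, Tnfrsf11a, Tnfrsf13b, Tnfrsf13c, Tnfrsf14, Tnfrsf17, Tnfrsf4, Tnfrsf8 and Tnfrsf9. They were chosen by name, with earlier results of these data known, and all 9 were found among the 545 endogenous genes of the count table. Transcripts were counted with a NanoString nCounter mouse immune panel, which assigns a fluorescent barcode to each transcript and counts barcodes without sequencing, after 2 ng of RNA had been copied to cDNA and amplified in 5 rounds of PCR. The cells were microglia, the macrophages that reside in the brain, taken from the hippocampus of male Balbc mice at postnatal day 28 by Percoll gradient and cell sorting. The control group is labelled control with no account of its rearing, and the separation protocol stands in the records of all samples. In the BDS group, pups had gone through brief daily separation from the mother, for 15 min a day between postnatal days 1 and 21. Each group held 6 samples, every one from another litter per the series' design text, and the labels name no genotype, allele or drug in either group.

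Receptors of this superfamily sit in the cell membrane and bind trimeric ligands of the TNF superfamily through cysteine-rich repeats outside the cell. Those measured here carry no death domain and signal by recruiting TRAF adaptors, which lead to NF-kB and MAP kinase activation. In macrophages and microglia, Tnfrsf1b (TNF receptor 2) binds TNF, and Tnfrsf11a (RANK) binds RANKL and is best known for driving osteoclast formation. Tnfrsf13b (TACI), Tnfrsf13c (BAFF receptor) and Tnfrsf17 (BCMA) bind BAFF or APRIL and are best known from B cells and plasma cells. Tnfrsf4 (OX40), Tnfrsf8 (CD30) and Tnfrsf9 (4-1BB) are best known as costimulatory receptors of activated T cells, and Tnfrsf14 (HVEM) is shared by lymphoid and myeloid cells.

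Total counts over the endogenous and housekeeping genes ran from 846414 to 1373840 in control samples and from 592159 to 1129518 in BDS samples. Each count was divided by a scaling factor made from 6 housekeeping genes of the sample, and these factors were 0.61 in BDS 21, 0.65 in BDS 25 and 0.85 in BDS 55, against 0.87 to 1.47 in the other 9 samples. BDS 21 and BDS 25 stood apart by this measure, while BDS 55 lay just below control 5 (0.87), and the comparisons of receptors that rest on these 3 samples are given with and without them. Of 13 markers listed for microglia, 8 were on the panel and all 8 lay above background in every sample, among them the receptor Csf1r and the integrin chain Itgam. Lymphocyte markers were mixed: the T cell receptor chains Cd3d and Cd3e and the B cell marker Pax5 lay above background in 0 of 12 samples, and Cd79b, Cd5 and Tcf7 in 12 of 12. In such bulk samples, fewer cells of a type and less RNA per cell cannot be told apart.

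Background was set in each sample at the mean plus 2 SD of its 8 negative-control probes, which match no mouse transcript, and this limit lay between 15.3 and 21.8 counts. Against it the 9 receptors fell into 3 tiers. Tnfrsf1b, Tnfrsf11a and Tnfrsf14 were abundant, at 44.1 to 132 times, 12.4 to 73.7 times and 5.34 to 23.8 times the limit. Tnfrsf17, Tnfrsf4 and Tnfrsf13b lay above the limit in 12 of 12 samples but never by more than 3.37 times, and Tnfrsf8 lay above it in 9 of 12. Tnfrsf13c lay above it in 2 of 12 samples and Tnfrsf9 in 0 of 12. Each transcript has its own probe, whose efficiency is not known, so this order is one of distance from background and not of transcript number.

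The promoters of the receptor farthest above background (Tnfrsf1b), of the next (Tnfrsf11a) and of the receptor that never rose above it (Tnfrsf9) are shown because their base composition differs. The letters come from the RefSeq promoter table of build GRCm38.p6, in which all 9 receptors had an entry. Each is written 5′ to 3′ on the strand of the gene and ends before the annotated gene begins (200 bases for Tnfrsf11a, 250 for the other two). Capitals mark GAGGAA, the core recognised by PU.1, a transcription factor of myeloid cells.
Tnfrsf1b, chr4:145246871-145247120, minus strand: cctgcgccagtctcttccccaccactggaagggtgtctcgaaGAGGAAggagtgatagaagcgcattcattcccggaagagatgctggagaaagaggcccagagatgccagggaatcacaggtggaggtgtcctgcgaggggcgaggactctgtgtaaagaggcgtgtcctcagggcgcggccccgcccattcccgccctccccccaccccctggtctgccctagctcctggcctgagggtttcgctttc
Tnfrsf11a, chr1:105780473-105780672, plus strand: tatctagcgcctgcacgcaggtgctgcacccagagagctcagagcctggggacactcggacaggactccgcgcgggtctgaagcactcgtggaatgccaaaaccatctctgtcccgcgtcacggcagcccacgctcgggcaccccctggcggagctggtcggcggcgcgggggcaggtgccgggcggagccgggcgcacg
Tnfrsf9, chr4:150919905-150920154, plus strand: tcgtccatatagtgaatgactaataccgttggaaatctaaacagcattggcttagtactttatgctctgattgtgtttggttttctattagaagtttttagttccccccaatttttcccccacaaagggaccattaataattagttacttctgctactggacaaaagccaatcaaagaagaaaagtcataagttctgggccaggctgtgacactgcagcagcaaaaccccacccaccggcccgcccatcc
Over the 250 bases before the start site, the window of Tnfrsf11a was 73.6% G and C and held 31 CG pairs, as many as or more than 95.4% of the 32851 windows of the table, whose median was 6. This window of Tnfrsf11a runs past the printed letters into the annotated gene. The 200 bases printed held 22 CG pairs at 71.0% G and C. The window of Tnfrsf1b held 12 CG pairs at 62.8% G and C, and the first window of Tnfrsf9 held 4 at 43.2%. The third abundant receptor did not share this composition, since Tnfrsf14 held 2 CG pairs at 49.2%. Among the receptors near background, Tnfrsf8 held 12 CG pairs at 60.0% G and C, and Tnfrsf13c held 10 at 63.2%. The windows of Tnfrsf13b, Tnfrsf4 and Tnfrsf17 held 8, 5 and 5 CG pairs. GAGGAA was searched on both strands and occurred in the windows of Tnfrsf1b, Tnfrsf8 and Tnfrsf17, and in 23.3% of all windows. The kappaB consensus, the motif bound by NF-kB, was found on either strand in the window of Tnfrsf8 and in the second window of Tnfrsf9, and in 7.25% of all windows. The AP-1 motif TGANTCA occurred in the same 2 windows, of Tnfrsf8 and the second of Tnfrsf9, and in 6.75% of all windows. These matches describe letters only and were not tested for binding.

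Tnfrsf1b, the TNF receptor that needs membrane-bound TNF for full activation, had the smallest counting error of the 9. Its normalized counts ran from 1224 to 1679 in controls, with a median of 1419, and from 1080 to 1667 in BDS, with a median of 1465. The groups overlapped, with 3 BDS samples above the control mean and 3 below it, of which BDS 35 and BDS 43 were also below the lowest control. Group means were 1446 ± 175 in controls and 1412 ± 241 in BDS (SD, n = 6), which gave -0.03 ± 0.12 (SE) on the log2 scale for BDS over control, with an adjusted p of 0.88 in edgeR's quasi-likelihood fit over all 357 tested genes. The 95% interval of the fold, 0.815 to 1.17, lay on both sides of 1. With counts between 881 and 2468, counting error alone was 2.60%, against a coefficient of variation of 12.1% in controls and 17.1% in BDS. The sign of this difference turned with TMM scaling (0.06 on the log2 scale), with the size factors of DESeq2 (0.05) and without control 54 (0.01), BDS 35 (0.03) or BDS 43 (0.01).

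Tnfrsf11a, the receptor of RANKL, had a coefficient of variation of 26.2% in controls and 45.4% in BDS, the latter with BDS 7 apart from the rest. Its normalized counts in controls ran from 470 to 937 with a median of 663. In BDS, 5 samples lay between 382 and 501, while BDS 7 stood at 1062, above every control. Of the 6 BDS samples, 5 were below the control mean, and 2, BDS 21 and BDS 25, were below the lowest control. The means of 677 ± 178 and 556 ± 252 (SD, n = 6) gave a log2 fold change of -0.28 ± 0.24 (SE; adjusted p = 0.60, edgeR). Among single samples, BDS 7 moved this comparison most when left out. Without control 54 the log2 fold change was -0.17 (edgeR). With BDS 21, BDS 25 or BDS 55 left out singly, it was -0.22, -0.20 or -0.25 (edgeR). Without BDS 7 the log2 fold change was -0.57 ± 0.17 (unadjusted p = 0.0039, adjusted p = 0.060 in edgeR), and without BDS 21, BDS 25 and BDS 55 it was 0.00 ± 0.29 (adjusted p = 1.0). With scaling to the positive-control probes, which moved the median of all tested genes from -0.10 to -0.50, it was -0.66 ± 0.38 (adjusted p = 0.29).

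Tnfrsf14, the herpesvirus entry mediator, which binds LIGHT as well as the inhibitory receptor BTLA, shared with Tnfrsf11a the place of BDS 7 but not the order of the other BDS samples. Controls ran from 158 to 303 normalized counts with a median of 221. BDS 7 again stood above all controls at 319, and the other 5 BDS samples lay between 137 and 184, with BDS 35 alone below the lowest control. Means were 218 ± 57 and 189 ± 66 (SD, n = 6), with a log2 fold change of -0.21 ± 0.22 (SE; adjusted p = 0.66, edgeR). Without BDS 7 it was -0.43 ± 0.18 (unadjusted p = 0.030, adjusted p = 0.15 in edgeR). Without BDS 21, BDS 25 and BDS 55 it was -0.08 ± 0.30 (adjusted p = 0.97).

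**Figure D1:**
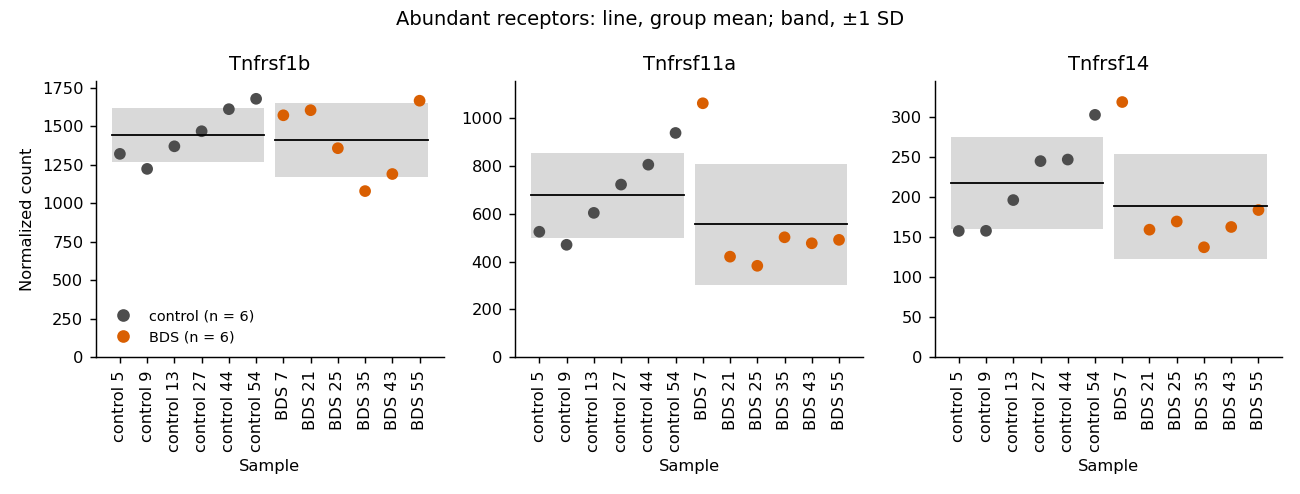
Normalized counts (vertical axis, from 0) of Tnfrsf1b, Tnfrsf11a and Tnfrsf14 in each of the 12 samples (horizontal axis), with controls in grey and BDS in orange; the line is the group mean and the band 1 SD either side (n = 6). For Tnfrsf11a and Tnfrsf14, BDS 7 sits at 1062 and 319, above all controls, while the other 5 BDS samples lie at 382 to 501 and 137 to 184.

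The 3 abundant receptors were then compared with each other across samples. Among the 6 controls they kept nearly the same order: on log2 values Pearson's r was 0.99 between Tnfrsf1b and Tnfrsf11a (exact permutation p = 0.0028), 0.95 between Tnfrsf1b and Tnfrsf14 (exact permutation p = 0.0083) and 0.98 between Tnfrsf11a and Tnfrsf14 (exact permutation p = 0.0028). The 3 transcripts share the scaling factor of each sample. Control 54 was highest and control 5 and control 9 lowest for all 3. Among the 6 BDS samples, r was 0.24, 0.55 and 0.88 for the same pairs (exact permutation p = 0.77, 0.27 and 0.11), and the difference between the groups was not tested. Over all 12 samples, Tnfrsf11a and Tnfrsf14 had r = 0.92 (permutation p = 0.0001, adjusted p = 0.0003 over 3 pairs) and rho = 0.71 (permutation p = 0.013, adjusted p = 0.019), and r was 0.81 without control 54 and BDS 7, the samples farthest from the median of Tnfrsf11a. Tnfrsf1b and Tnfrsf14 had r = 0.69 (permutation p = 0.014, adjusted p = 0.020) and rho = 0.72 (permutation p = 0.011, adjusted p = 0.019), with r = 0.58 without BDS 35 and BDS 43. Tnfrsf1b and Tnfrsf11a had r = 0.49 (permutation p = 0.11, adjusted p = 0.11) and rho = 0.43 (permutation p = 0.17, adjusted p = 0.17), with r = 0.47 without the same 2 samples. Without BDS 21, BDS 25 and BDS 55 the 3 values of r were 0.90 for Tnfrsf1b with Tnfrsf11a, 0.94 for Tnfrsf1b with Tnfrsf14 and 0.97 for Tnfrsf11a with Tnfrsf14 (n = 9, no test).

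Ratios of raw counts within a sample do not depend on the scaling. Tnfrsf11a over Tnfrsf1b was 0.384 to 0.558 in controls. In BDS 21, BDS 25 and BDS 55, the samples with low housekeeping counts, it was 0.262, 0.282 and 0.294, below every control. BDS 43 and BDS 35 lay within the control range at 0.40 and 0.465, and BDS 7 lay above it at 0.675. The BDS group thus fell on both sides of the controls, and its mean of 0.396 ± 0.158 was not set apart from 0.462 ± 0.067 by a two-sided exact permutation test (SD, n = 6; p = 0.38, or 0.41 adjusted over 3 ratios). Without BDS 7 the BDS mean was lower by 0.121 (exact permutation p = 0.035), and without the 3 samples with low housekeeping counts it was higher by 0.052 (exact permutation p = 0.49). Tnfrsf11a over Tnfrsf14 was 3.11 ± 0.15 in controls, a spread of 2.95 to 3.33, and 2.91 ± 0.51 in BDS, with 2.25 in BDS 25 and 3.65 in BDS 35 as its ends (SD, n = 6; exact permutation p = 0.36, adjusted p = 0.41). Tnfrsf14 over Tnfrsf1b was 0.149 ± 0.023 and 0.134 ± 0.036 (SD, n = 6; exact permutation p = 0.41, adjusted p = 0.41), and without BDS 7 the BDS mean was lower by 0.029 (exact permutation p = 0.039). The part of RNA amount or quality in these 3 samples was not tested.

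**Figure D2:**
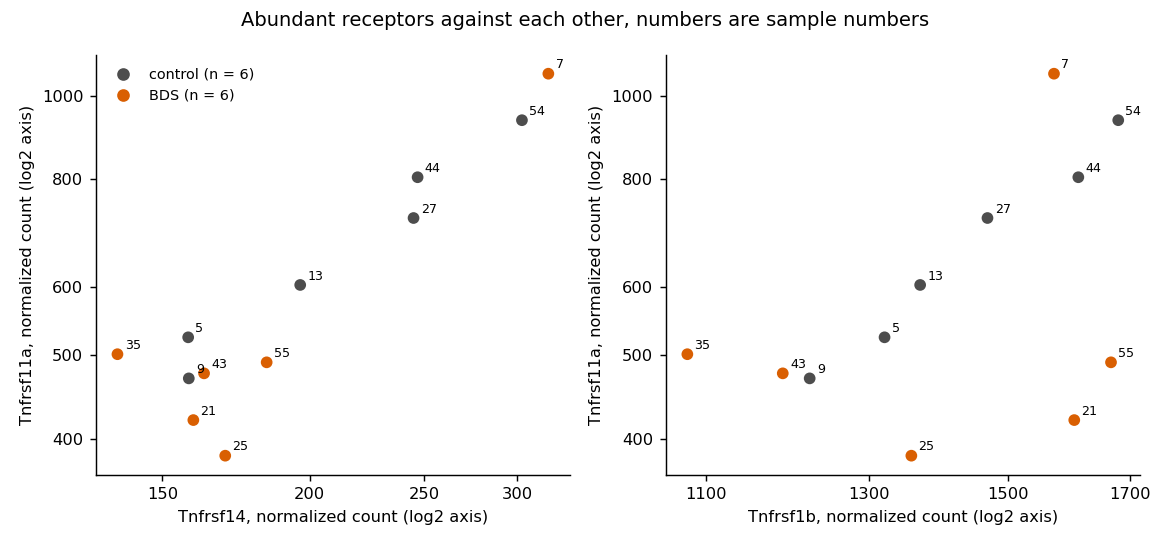
Normalized counts of Tnfrsf11a (vertical log2 axis) against Tnfrsf14 (left) and Tnfrsf1b (right; horizontal log2 axes), 1 point per sample with its number, controls in grey and BDS in orange. On the right the 6 controls form a line (r = 0.99) with BDS 35 and BDS 43 near its lower end, while BDS 21, BDS 25 and BDS 55 lie below it and BDS 7 above it.

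Among all 357 tested genes, those with profiles most like each receptor were picked by Pearson's r of log2 values over the 12 samples, which makes these r a description. The values are with all 12 samples unless stated. For Tnfrsf1b they were Irf8, a transcription factor of the macrophage lineage, at r = 0.96 (rho = 0.98), then Cd9 at 0.89 and Ptk2 at 0.88. For Tnfrsf11a they were the MAP kinase Mapk14 at 0.97, the kinase Jak3 at 0.95 and the Fc receptor Fcgr2b at 0.95. For Tnfrsf14 the ectonucleotidase Entpd1 was among them at 0.93. Tnfrsf13b, nearer to background, was most like Trp53 at 0.91, Trem2 at 0.90 and Blnk at 0.89. These were 0.82, 0.62 and 0.57 without BDS 21, BDS 25 and BDS 55 (n = 9). Tnfrsf17 was most like Mx1 at 0.87, Hcst at 0.77 and Blnk at 0.74, with 0.76, 0.49 and 0.43 without those 3 samples. Tnfrsf4 was most like Ifngr2 at 0.77, H2-DMa at 0.73 and Il7r at 0.71.

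The BAFF and APRIL receptors were all near background. Tnfrsf13b (TACI), which binds both ligands, was the only receptor at an unadjusted p under 0.05. Its raw counts were 25, 32, 26, 32, 29 and 36 in controls 5, 9, 13, 27, 44 and 54, and 44, 39, 32, 22, 36 and 35 in BDS 7, 21, 25, 35, 43 and 55. Before scaling the groups thus overlapped, with means of 30 and 34.7 counts, and in BDS 35 the count of 22 stood beside a background limit of 20.7. After scaling, controls ran from 23.4 to 29.6 with a median of 26.4, and BDS from 21.6 to 64.1 with a median of 40.5. BDS 21 (64.1), BDS 25 (49.3), BDS 55 (41.0) and BDS 7 (40.0) lay above every control, BDS 43 (28.0) within their range and BDS 35 (21.6) below it. Means were 26.5 ± 2.5 and 40.7 ± 15.1 normalized counts (SD, n = 6), a log2 fold change of 0.59 ± 0.23 (SE; unadjusted p = 0.020, adjusted p = 0.29, edgeR). The 95% interval of the fold was 1.08 to 2.10. Genes at an unadjusted p under 0.05 made up 12.3% of the 357 tested, and those higher in BDS 0.840%.

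The same scaling acted on the negative-control probes, whose raw mean per sample was 9.62 ± 0.85 counts for controls and 10.1 ± 1.0 for BDS (n = 6, SD; two-sided exact permutation p = 0.36). After division by the scaling factors it was 8.60 ± 1.39 and 11.8 ± 3.3 (n = 6, SD; two-sided exact permutation p = 0.061), with 16.8, 13.3 and 13.3 in BDS 21, BDS 25 and BDS 55, the samples with the 3 highest values of Tnfrsf13b. The background limit after the same division was 16.4 ± 2.4 in controls and 23.5 ± 5.9 in BDS (n = 6, SD; two-sided exact permutation p = 0.019). The part of this background in the values of Tnfrsf13b was not tested beyond the fits given next. BDS 7 held 40.0 normalized counts of Tnfrsf13b beside a scaled background of 9.19, which lay within the control range of 6.55 to 9.93. With the mean of the negative-control probes subtracted first, the log2 fold change was 0.58 ± 0.27 (limma, unadjusted p = 0.057, adjusted p = 0.34). Without BDS 21, BDS 25 and BDS 55 it was 0.18 ± 0.20 (edgeR, unadjusted p = 0.39, adjusted p = 0.96) and without BDS 21 alone 0.42 ± 0.20 (edgeR, unadjusted p = 0.053, adjusted p = 0.54). With the housekeeping level as covariate it was 0.27 ± 0.20 (edgeR, unadjusted p = 0.19, adjusted p = 0.84). With TMM scaling it was 0.67 ± 0.22 (edgeR, unadjusted p = 0.0089, adjusted p = 0.52). With scaling to the positive-control probes it was 0.11 ± 0.34 (edgeR, adjusted p = 0.78), while the median of all tested genes was then -0.50. For Tnfrsf13b the authors' deposited table lists 28 and 44 as the means, 1.54 as the fold and 0.0402 as the unadjusted p.

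**Figure D3:**
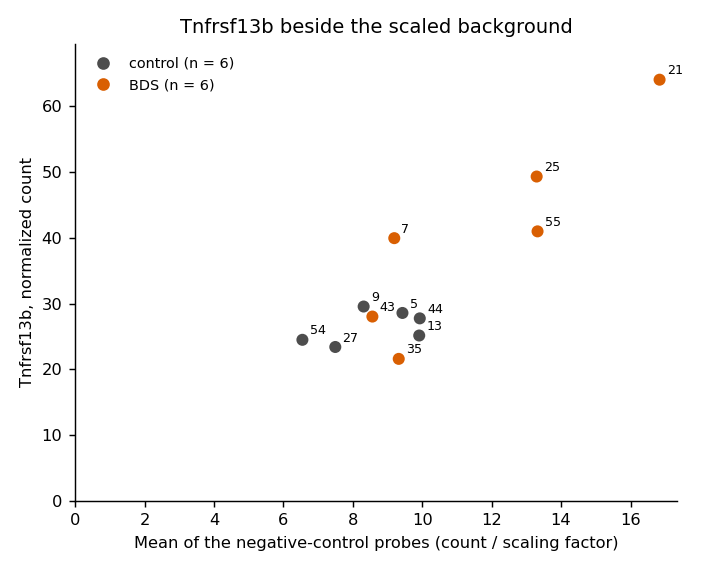
Normalized counts of Tnfrsf13b (vertical axis, from 0) against the mean of the 8 negative-control probes after the same scaling (horizontal axis, from 0), 1 point per sample with its number, controls in grey and BDS in orange. BDS 21, BDS 25 and BDS 55 lie highest on the horizontal axis, at 16.8, 13.3 and 13.3, and BDS 7 is at 40.0 normalized counts beside a background of 9.19.

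Tnfrsf17 (BCMA), the receptor best known from plasma cells, lay at 1.74 to 3.37 times the background limit. Raw counts were 31 to 63 in controls and 33 to 48 in BDS. Normalized counts ran from 30.5 to 48.8 in controls, with a median of 39.1, and from 37.4 to 54.2 in BDS, with a median of 47.8. BDS 21, BDS 25 and BDS 55 again lay above every control, and the other 3 BDS samples within the control range. Means were 39.3 ± 7.7 and 46.6 ± 7.7 (SD, n = 6), with a log2 fold change of 0.22 ± 0.17 (SE; adjusted p = 0.54, edgeR). It was 0.02 ± 0.19 without those 3 samples and turned to -0.25 ± 0.34 with scaling to the positive-control probes, against the median of -0.50 for all genes under that scaling. Tnfrsf13c (BAFF receptor), which binds BAFF alone, had 12 to 32 raw counts in controls and 12 to 19 in BDS, and lay above background in control 5 and control 54 only, so it did not enter the test. With no filter its log2 fold change was 0.04 (edgeR, adjusted p = 1.0). Its highest sample was control 54, with 32 counts against a limit of 18.7. For Tnfrsf13c the authors' deposited table lists 33% of samples above background.

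Markers of B cells are given beside these 3 receptors. Of 17 listed markers the panel held 13, of which 7 were tested and 5 lay above background in 0 of 12 samples, among them Pax5, Cd22, Cr2 and Ikzf3. Detected were Cd79b, a chain of the B cell receptor complex, in 12 of 12 samples (161 ± 44 and 188 ± 58 normalized counts; SD, n = 6), Cxcr5 in 11 and Cd79a in 6. The summed normalized count of the 13 ran from 5737 to 6744 in controls and from 5842 to 6800.5 in BDS, most of it Blnk and Prdm1. Ms4a1, a defining B cell marker, lay above background in 2 of 12 samples with at most 23 raw counts.

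The costimulatory receptors of T cells were low throughout. Tnfrsf4 (OX40) had 44, 40, 39, 59, 30 and 63 raw counts in controls 5, 9, 13, 27, 44 and 54, and 30, 42, 23, 24, 42 and 26 in BDS 7, 21, 25, 35, 43 and 55. After scaling, controls ran from 28.7 to 50.3 with a median of 40.3, and BDS from 23.6 to 35.5 in 5 samples, with BDS 21 at 69.0. Means were 39.9 ± 7.3 and 36.4 ± 16.5 (SD, n = 6), with a log2 fold change of -0.17 ± 0.24 (SE; adjusted p = 0.72, edgeR). Without BDS 21, BDS 25 and BDS 55 it was -0.51 ± 0.20 (unadjusted p = 0.029, adjusted p = 0.77), and without BDS 21 alone -0.42 ± 0.17 (unadjusted p = 0.028, adjusted p = 0.43), all in edgeR. Counting error alone was 16.1% at the mean count of Tnfrsf4, against coefficients of variation of 18.3% in controls and 45.3% in BDS.

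Tnfrsf8 (CD30) was detected in 9 of 12 samples, and the split by group was not tested. All 6 controls lay above background, with raw counts of 22, 23, 23, 26, 22 and 45, but only 3 of 6 BDS samples did, BDS 7, BDS 35 and BDS 55, with 23, 27 and 25. BDS 25 and BDS 43 had 13 and 17 counts. BDS 21 had 3, and all 8 negative-control probes of that sample counted as high or higher. BDS 21 and BDS 25 are the samples with the lowest scaling factors, 0.61 and 0.65. The margin was small, as in control 44, where 22 counts stood against a limit of 20.1. The filter of 5 samples could thus be passed through the controls alone, and the normalized means of 23.2 ± 4.1 and 19.1 ± 8.9 (SD, n = 6) gave a log2 fold change of -0.26 ± 0.28 (SE; adjusted p = 0.67, edgeR). For Tnfrsf8 the authors' deposited table lists 83% of samples above background, more than the 9 of 12 counted here. Tnfrsf9 (4-1BB) had 9 to 18 raw counts in controls and 6 to 13 in BDS. In every sample at least 1 of the 8 negative-control probes counted as high or higher. It did not enter the test, and with no filter its log2 fold change was -0.15 (edgeR, adjusted p = 0.83). Both T cell chains Cd3d and Cd3e had at most 11 raw counts in any sample. The panel held 18 of 19 listed T cell markers; 7 were tested and 8 lay above background in 0 of 12 samples, and their summed normalized count was 5010 to 6052 in controls and 4488 to 5660.5 in BDS, most of it Il7r. Detected beside it were Cd5 and Tcf7 in 12 of 12 samples, Foxp3 in 9 and the T cell kinase Lck in 11, the last at 34.3 ± 6.5 and 23.7 ± 4.5 normalized counts (SD, n = 6; unadjusted p = 0.0093, adjusted p = 0.25, edgeR). Of the 7 tested T cell markers, 4 had log2 fold changes below 0 and 3 above. Foxp3 was at 0.44 (edgeR, unadjusted p = 0.059, adjusted p = 0.38) and Cd5 at 0.24 (edgeR, unadjusted p = 0.27, adjusted p = 0.60). Lck alone among these markers had an unadjusted p under 0.05. Genes lower in BDS at that level made up 11.5% of all 357 tested. The part of lymphocytes in the receptor values was not tested.

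**Figure D4:**
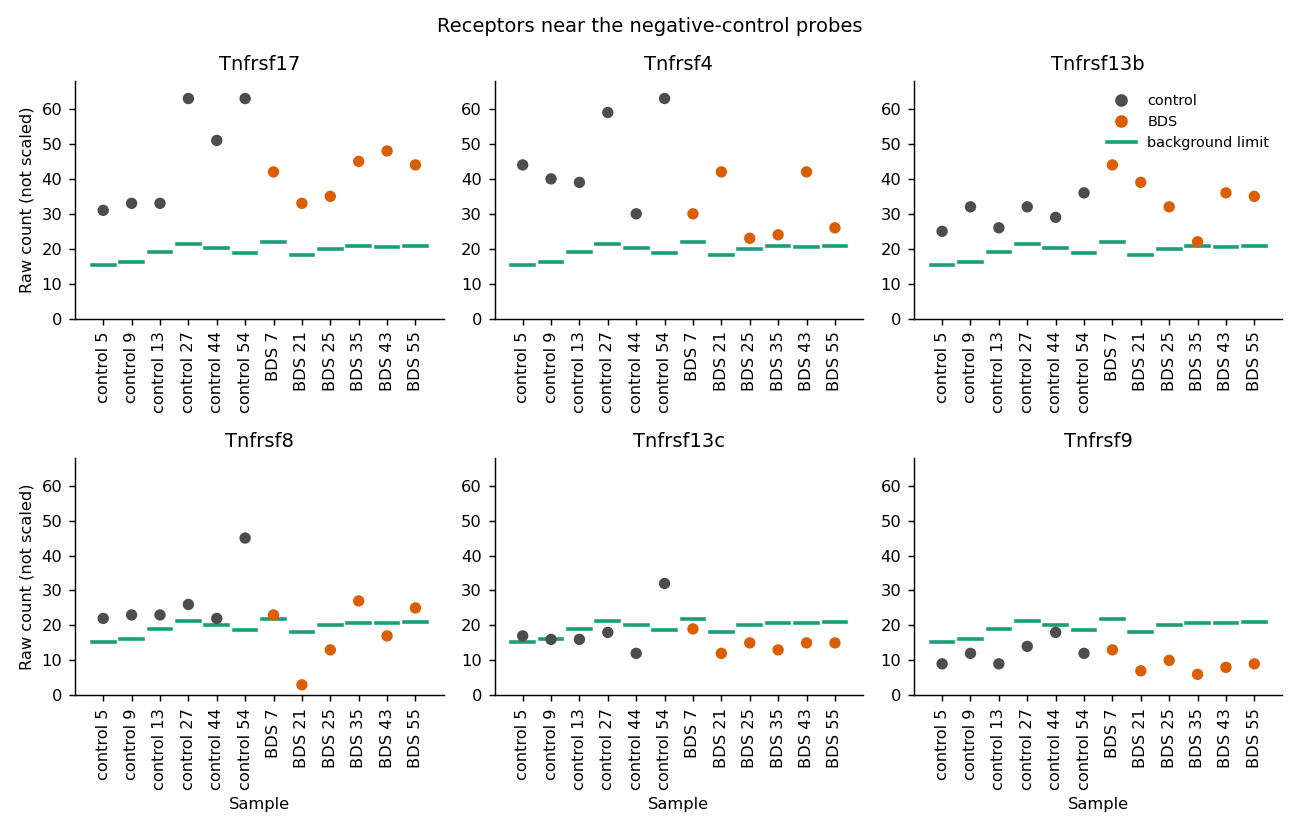
Raw counts (vertical axis, from 0, not scaled) of the 6 receptors near the negative-control probes in each sample (horizontal axis), controls in grey and BDS in orange; the green bar is the background limit of that sample. Tnfrsf17, Tnfrsf4 and Tnfrsf13b lie above the bar in 12 of 12 samples, Tnfrsf8 in 9, Tnfrsf13c in 2 and Tnfrsf9 in 0.

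Counted per sample, 7 to 8 of the 9 receptors lay above background in controls and 6 to 7 in BDS. The means of 7.33 ± 0.52 and 6.50 ± 0.55 (SD, n = 6) did not pass the threshold (two-sided exact permutation p = 0.076, the smallest possible being 0.0022), and p was 0.032 without BDS 7, BDS 35 or BDS 55 and 0.15 without BDS 21, BDS 25 or BDS 43, by the same exact permutation. Without BDS 21, BDS 25 and BDS 55 together the difference was -0.67 receptors (exact permutation p = 0.25). Over all 545 genes, 66.3% ± 3.3 lay above background per control sample and 59.4% ± 3.8 per BDS sample (n = 6, SD; two-sided exact permutation p = 0.0087), and the mean of the other 3 BDS samples without those named was 62.1%. The background limit itself was 18.4 ± 2.3 raw counts in controls and 20.4 ± 1.2 in BDS (n = 6, SD; two-sided exact permutation p = 0.11). Mean total counts were 1087969 and 825785.5 (n = 6; two-sided exact permutation p = 0.063), and their part in the number of receptors detected was not tested.

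Of the 7 tested receptors, 0 passed the adjusted threshold of 0.05 in edgeR, as did 0% of all 357 genes, and 1, Tnfrsf13b, was at an unadjusted p under 0.05. DESeq2 with the same scaling gave an adjusted p to 2 of the 7, Tnfrsf1b and Tnfrsf11a, of which 0 passed, and Tnfrsf13b again had an unadjusted p under 0.05. Log2 fold changes were below 0 for 5 of the 7, against 66.1% of all tested genes, and the median of the 7 was -0.17 against -0.10 for all. Control and BDS values did not overlap for 0 of the 7, against 1.12% of all genes. The smallest adjusted p of any receptor over 27 alternatives was 0.060, for Tnfrsf11a without BDS 7.

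**Figure D5:**
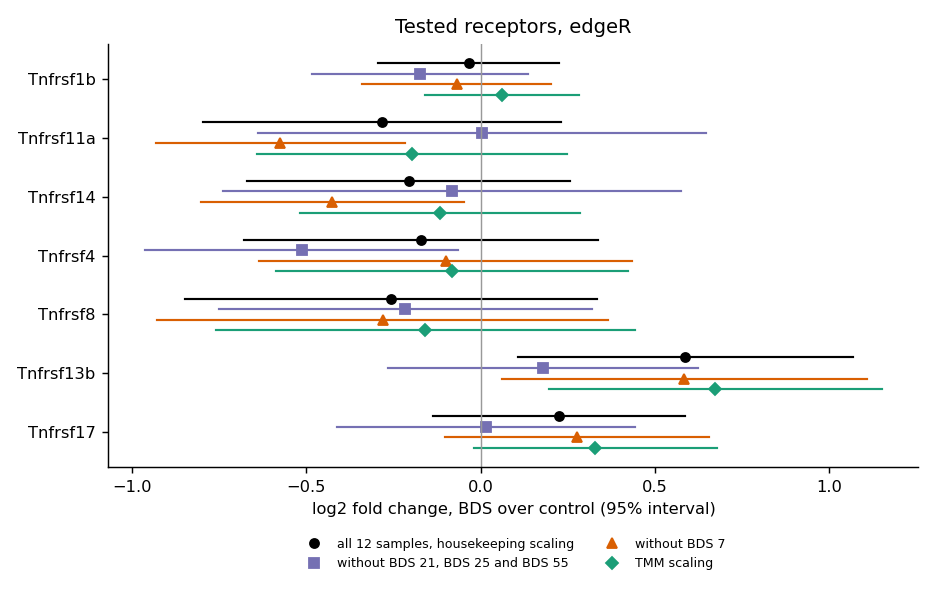
Log2 fold change, BDS over control (horizontal axis), with its 95% interval for the 7 tested receptors (vertical axis), from edgeR with all 12 samples (black), without BDS 21, BDS 25 and BDS 55 (purple), without BDS 7 (orange) and with TMM scaling (green). With all samples, Tnfrsf13b at 0.59 is the receptor whose interval does not include 0; it goes to 0.18 without the 3 samples, and Tnfrsf11a goes from -0.28 to -0.57 without BDS 7.

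Other genes of the pathway were described from lists of receptors under other symbols, ligands, adaptors and NF-kB genes. Of 16 further receptors, 4 were on the panel and 2 were tested, both with log2 fold changes above 0 and 0 past the adjusted threshold. Cd27, the receptor of CD70, was at 377 ± 26 and 381 ± 56 normalized counts, and Ltbr, the lymphotoxin beta receptor, at 94.4 ± 9.9 and 105 ± 20 (SD, n = 6). Cd40 lay above background in 2 of 12 samples and the death receptor Fas in 0 of 12.

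Ligands of the receptors were unevenly measured. Of 18 listed ligands, 13 were on the panel and 10 were tested, 6 with log2 fold changes below 0 and 4 above, with a median of -0.10 and 0 at an unadjusted p under 0.05 in either direction. Tnf, the ligand of Tnfrsf1b, ranged from 256 to 1659 normalized counts in controls and from 163 to 714 in BDS. BDS 7, highest for Tnfrsf11a and Tnfrsf14, was lowest for Tnf. Tnfsf11 (RANKL), the ligand of Tnfrsf11a, and Tnfsf14 (LIGHT), a ligand of Tnfrsf14, lay above background in 0 of 12 samples, with at most 9 and 15 raw counts. Tnfsf13b (BAFF), which binds all 3 of the receptors best known from B cells, had 271 ± 31 normalized counts against 253 ± 62 for BDS (SD, n = 6; edgeR, adjusted p = 0.77). Tnfsf8, the ligand of Tnfrsf8, was at 27.1 ± 3.0 and 25.4 ± 7.1, and Tnfsf18 (GITR ligand), which had the smallest p of the ligands, was at 17.6 ± 3.2 and 23.4 ± 9.2 (SD, n = 6; edgeR, adjusted p = 0.44). Tnfsf18 was near background, above it in 7 of 12 samples with at most 30 raw counts. The mean background limit after scaling was 16.4 in controls and 23.5 in BDS, and BDS 21 held the highest Tnfsf18 value, 41.1. Tnfsf10 (TRAIL) was at 101 ± 27 and 90.5 ± 15.8, Tnfsf12 (TWEAK) at 548 ± 55 and 575 ± 71, and Ltb at 74.5 ± 12.5 and 69.4 ± 16.2 (SD, n = 6). Tnf, Tnfsf11, Tnfsf14 and Tnfsf8 were named as partners of the receptors, after their values had been seen.

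Of 18 receptor adaptors and proximal signalling genes, 8 were on the panel and 6 were tested, 3 below and 3 above 0. Traf6, the adaptor that RANK uses, had 1498 ± 119 and 1245 ± 218 normalized counts (SD, n = 6; log2 fold change -0.27; edgeR, unadjusted p = 0.035, adjusted p = 0.38). Traf2, the adaptor bound by TNF receptor 2, was at 1102 ± 34 and 1039 ± 92, Traf3 at 394 ± 51 and 399 ± 44, Fadd at 119 ± 22 and 122 ± 28 and Casp8 at 3715 ± 486 and 3548 ± 414 (SD, n = 6). Of 14 NF-kB genes, 12 were on the panel and 11 were tested, 9 below and 2 above 0, with a median of -0.25, beside 66.1% below 0 and a median of -0.10 over all 357 genes. Lower in BDS by an unadjusted p under 0.05 were 2 of the 11, beside 11.5% over the panel. Nfkb1, which encodes the p50 precursor, was at 3647 ± 185 and 3063 ± 494 (SD, n = 6; edgeR, unadjusted p = 0.025, adjusted p = 0.34), and Tnfaip3, an inhibitor of NF-kB that NF-kB itself induces, at 961 ± 211 and 736 ± 179 (SD, n = 6; edgeR, unadjusted p = 0.042, adjusted p = 0.38). Nfkb2, the subunit processed in the noncanonical pathway of several of these receptors, was at 691 ± 300 and 472 ± 160, Rela at 1917 ± 88 and 1807 ± 184 and Ikbke at 92.8 ± 84.1 and 56.3 ± 22.5 (SD, n = 6). Control 44 held the highest control value of Nfkb2, Ikbke and Tnf. It was also the highest control for Nfkbia (11954 normalized counts, the next 3477) and Nfkbiz (17718, the next 8217), both among the 9 below 0. That count was not redone without control 44, and these genes were named after their values had been seen. Without control 44 the control mean was 58.9 for Ikbke (log2 fold change -0.08) and 574 for Nfkb2 (-0.27), and Tnfaip3 had an unadjusted p of 0.11 in edgeR. The log2 fold change of Nfkb1 stayed at -0.25 (edgeR, unadjusted p = 0.039) without control 44. Without that sample the log2 fold change of Tnf turned from -0.25 to 0.34. Without BDS 21, BDS 25 and BDS 55 the values for Traf6, Nfkb1 and Tnfaip3 were -0.06, -0.08 and -0.13 (edgeR, unadjusted p = 0.51, 0.32 and 0.49). No gene of these 4 lists passed the adjusted threshold, as 0 of all 357 tested genes did in edgeR.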

How the data were processed

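Barcode counts of 12 samples were analysed. The deposited raw table holds whole-number counts per probe. The authors' second table holds scores, which are counts scaled by the authors to housekeeping genes and positive controls, then rounded. Per the file headers it also lists a fold (ratio), a p-value and the percent of samples with signal over background. For the barcode counts, the reading software was not given in the sources used here.

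Scaling factors were the geometric means of Tbp, Sdha, Polr1b, Oaz1, Gapdh and Alas1 per sample, relative to their geometric mean over samples. A gene was tested where at least 40% of samples (5 of 12) exceeded the background limit (mean plus 2 SD over the 8 negative controls): 357 of 545 genes, 7 of 9 receptors. The comparison used edgeR 4.0.16 (quasi-likelihood test, no covariates, R 4.3.3) with Benjamini-Hochberg adjustment over the 357 genes; SE is the log2 fold change over the root of its F statistic. Alternatives used DESeq2 1.42.0 and limma 3.58.1 on log2 of the deposited or rescaled values (pseudocount 1 or 10), other scalings, filters and samples. Single values per sample were compared by exact permutation (924 rearrangements) and correlations by 100000 permutations (scipy 1.17.1). The edgeR test was checked on simulated data with the same spread set for every gene and both groups. That check does not cover receptors whose spread differs between the groups, such as Tnfrsf11a. Intervals cover the spread between samples; counting error ignores the PCR step. Litters differed between samples, so replicates are biological; no label gives a batch. Receptors and lists were chosen with earlier results of these data known. All receptors, the 5 listed genes of smallest p per pathway list and the 3 most similar genes per receptor above background in all samples were named, except some genes that are not reported here. The ratios of raw counts, and the similar genes without 3 samples, were added after seeing the data.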

Additional observations from a re-analysis of the deposited data

Results flagged for a closer look

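In 9 of 64 groups of 6 samples checked by Dixon's gap test at the 95% level, 1 sample stood apart from the other 5. For independent, normally distributed values chance gives this in about 1 of 20 groups. The genes here share the same samples and the counts were not log-scaled, so that rate cannot be set against 9 of 64. BDS 7 was the highest of the BDS samples for Tnfrsf11a (1062 normalized counts, the next 501) and Tnfrsf14 (318.7, the next 184). BDS 21 was the highest BDS sample for Tnfrsf4 (68.99, the next 35.5) and Tnfsf18 (41.07, the next 23.4). Control 44 was the highest control for Tnfrsf9 (17.23, which lay below the background limit of its sample), Tnf (1659, the next 560), Nfkb2 (1279, the next 691) and Ikbke (262.2, the next 81.9). Control 9 was the highest control for Tnfsf8 (33.25, the next 26.5).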

How the results depend on the processing

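Each tested receptor was refitted under 15 other settings (13 for Tnfrsf8, which 2 stricter filters left out) and with each of the 12 samples left out, and 0 of these fits passed the adjusted threshold for any receptor (DESeq2 with housekeeping size factors gave an adjusted p to 2 of the 7). The log2 fold changes of Tnfrsf4, Tnfrsf8 and Tnfrsf13b kept their sign throughout, from -0.67 to -0.07, -0.92 to -0.10 and 0.11 to 0.72. Signs turned for Tnfrsf1b with TMM scaling (0.061) and the size factors of DESeq2 (0.052), for Tnfrsf11a without BDS 21, BDS 25 and BDS 55 (0.0044), for Tnfrsf14 with the housekeeping level as covariate (0.0060) and for Tnfrsf17 with positive-control scaling (-0.25). Without those 3 samples the ratios of Tnfrsf11a over Tnfrsf14, Tnfrsf11a over Tnfrsf1b and Tnfrsf14 over Tnfrsf1b turned to 0.190, 0.0516 and 0.0069 (BDS minus control). With 1 sample left out, the log2 fold change ran from -0.088 to 0.032 for Tnfrsf1b. The cause was not tested.

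The count of receptors at an unadjusted p under 0.05 was 1. It was 0 with positive-control scaling, with background subtracted and with the housekeeping level as covariate, and 1 to 3 with 1 sample left out (3 without BDS 7: Tnfrsf11a, Tnfrsf14 and Tnfrsf13b). It was 1 without BDS 21 and also without BDS 21, BDS 25 and BDS 55, in both cases Tnfrsf4 in place of Tnfrsf13b. The group difference in receptors above background was -0.83, and -0.93 to -0.70 with 1 sample left out.

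Over all tested genes, 0 passed the adjusted threshold in edgeR, against 1 with positive-control scaling, 6 in DESeq2 with housekeeping size factors and 0 to 4 with 1 sample left out (4 without BDS 7). At an unadjusted p under 0.05, 41 were lower and 3 higher in BDS. The lower count was 14 with TMM scaling, 14 with the size factors of DESeq2, 20 without the 3 samples, 22 with the covariate and 22 to 88 with 1 sample left out (88 without BDS 7, 23 without BDS 25, 22 without BDS 55). The higher count was 18, 13, 0 and 0 under the same 4 settings, 0 with positive-control scaling, 5 with 5 housekeeping genes, 7 and 5 in limma with pseudocounts of 1 and 10, 1 with background subtracted, 8 on the deposited values, 12 with no filter and 2 to 10 with 1 sample left out. No paired analysis was possible because the groups share no replicate number. At their mean counts, the 6 receptors near background carry counting errors of 15.2% to 30.7%.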
